A study of Arabidopsis thaliana with 24 samples.

Results

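The genes described here are 10 Arabidopsis genes of the unfolded protein response of the endoplasmic reticulum (ER), taken by their locus identifiers from a table of 32833 genes. They are the transcription factor genes BZIP60 (AT1G42990) and BZIP28 (AT3G10800), the HSP70 chaperone genes BIP1 (AT5G28540), BIP2 (AT5G42020) and BIP3 (AT1G09080), the J-protein genes ERDJ3A (AT3G08970) and ERDJ3B (AT3G62600), the lectin chaperone genes CNX1 (AT5G61790) and CRT2 (AT1G09210), and the ER HSP90 gene HSP90.7 (AT4G24190). All 10 were found in the table and all 10 were abundant enough to be tested. RNA-seq measured their transcripts in wild type plants of ecotype Col, in 24 libraries that form 8 groups of 3 replicates. Plants were 4 to 5 weeks old and had grown in days of 8 h at 50 µmol m−2 s−1. Every plant carried a drop of 0.3% agarose between the local and the systemic leaf for 15 min, made either with water (H2O in the labels) or with 50 mM DPI (diphenyleneiodonium). DPI inhibits flavin-containing oxidases, among them the NADPH oxidases that carry the wave of reactive oxygen species (ROS) from leaf to leaf. The local leaf then received light stress of 2000 µmol m−2 s−1 for 8 min or served as an unlit control. Local and systemic leaves were collected separately. The paper describes sampling at the start of the light stress and after 8 min. In every light response and its interactions, light and 8 more min since the drop was placed therefore cannot be told apart. The 8 groups are therefore each combination of drop (water or DPI), light (control or high light) and leaf (local or systemic), and the systemic leaf itself was never exposed to high light. The words lit, unlit and without light refer here only to this light stress and do not mean darkness. The labels name the unlit groups Control. Each library was made from pooled leaves of many plants, and the methods describe the replicates as separate repeats of the experiment.

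The unfolded protein response is the transcriptional programme by which a cell matches the folding capacity of its ER to the load of client proteins. In plants it has 2 arms. In one, the membrane protein IRE1 cuts the BZIP60 transcript, whose spliced form encodes a nuclear transcription factor. In the other, bZIP28 is held in the ER membrane with BiP bound to its lumenal side, is released when BiP is drawn away, and is cleaved in the Golgi by proteases. Their targets include the genes for BiP, the HSP70 of the ER lumen, for the J-proteins that hand clients to BiP, for calnexin and calreticulin, which bind glycoproteins, and for HSP90.7, the ER-lumen HSP90 also called SHEPHERD. BIP3 is known as the BiP gene that is nearly silent in unstressed plants and strongly induced by ER stress, whereas BIP1 and BIP2 are expressed in most tissues. The counts are sums over a gene, so that spliced and unspliced BZIP60 transcripts were not distinguished.

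The stretches upstream of BIP3, HSP90.7 and BZIP60 are shown because these were the only 3 of the 10 genes whose 250 bases before the annotated start held any of 5 searched motifs. Sequences were read from the RefSeq assembly TAIR10.1, whereas the authors aligned to TAIR10, and the deposited table itself holds no coordinates. All 3 genes lie on the minus strand. Each sequence is written 5′ to 3′ on the strand of the gene and ends at the base before the annotated start. Capitals mark the motif matches.

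BIP3, chr1:2931851-2932100, minus strand: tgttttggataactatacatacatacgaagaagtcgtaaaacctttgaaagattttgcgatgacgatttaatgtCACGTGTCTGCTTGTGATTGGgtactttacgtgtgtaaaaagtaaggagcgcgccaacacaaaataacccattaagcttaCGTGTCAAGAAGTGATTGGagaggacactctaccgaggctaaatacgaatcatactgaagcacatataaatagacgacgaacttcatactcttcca
HSP90.7, chr4:12556059-12556308, minus strand: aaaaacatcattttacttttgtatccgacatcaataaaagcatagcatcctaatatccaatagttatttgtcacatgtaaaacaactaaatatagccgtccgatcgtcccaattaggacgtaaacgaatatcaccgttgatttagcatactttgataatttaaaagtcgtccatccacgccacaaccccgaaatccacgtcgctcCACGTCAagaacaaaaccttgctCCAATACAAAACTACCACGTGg
BZIP60, chr1:16137464-16137713, minus strand: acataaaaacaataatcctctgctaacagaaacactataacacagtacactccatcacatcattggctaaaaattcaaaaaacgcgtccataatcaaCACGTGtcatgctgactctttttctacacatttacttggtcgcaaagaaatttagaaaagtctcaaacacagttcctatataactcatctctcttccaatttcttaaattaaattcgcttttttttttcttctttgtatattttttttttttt

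The motifs were searched on both strands. They were ERSE-I, the ER stress element of CCAAT followed after any 10 bases by CACG; ERSE-II, which is ATTGG, any base and CCACG; the core TGACGTG of the unfolded protein response element (UPRE); the heat shock element GAANNTTC; and the G-box CACGTG. ERSE-I was present 2 times upstream of BIP3, from 174 to 156 and from 96 to 78 bases before the start, and 1 time upstream of HSP90.7, from 22 to 4 bases before it. Among the 250-base windows of 27443 genes, 0.689% held ERSE-I, and 2 of the 10 genes did. The UPRE core was found upstream of HSP90.7, from 45 to 39 bases before the start, and in 2.90% of all windows. A G-box lay upstream of BIP3, HSP90.7 and BZIP60, and in 6.49% of all windows. In BIP3 and HSP90.7 the G-box overlapped an ERSE-I match. ERSE-II, in 0.0619% of windows, and the heat shock element, in 9.55%, were found in none of the 10 windows. These matches describe letters in a window and no binding was measured.

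Levels are normalized counts, which are read counts that the authors divided by a size factor for each library. Libraries held 13492454 to 26913744 reads, so that 3 reads corresponded to a normalized count of 2.00 to 4.27, and even the weakest value of the 10 genes, 17.8 for BIP3, lay above this. Replicate libraries correlated with r of 0.9869 to 0.9941. Leaf transcripts were abundant in every group, with RCA, the Rubisco activase, at group means of 243894 to 325547. The root gene TIP2;3, the seed gene SESA3 and the floral gene AP1 had group means under 1 in all groups, whereas the root gene PYK10 ranged from 18.1 to 91.9. Tests were made with limma on log2(normalized count + 1) over 18314 genes, and a gene is called higher or lower at a Benjamini-Hochberg adjusted p under 0.05. Changes are given as differences on that log2 scale with their standard error (SE). The added 1 makes changes of the weakest transcripts look smaller than they are.

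**Figure D1:**
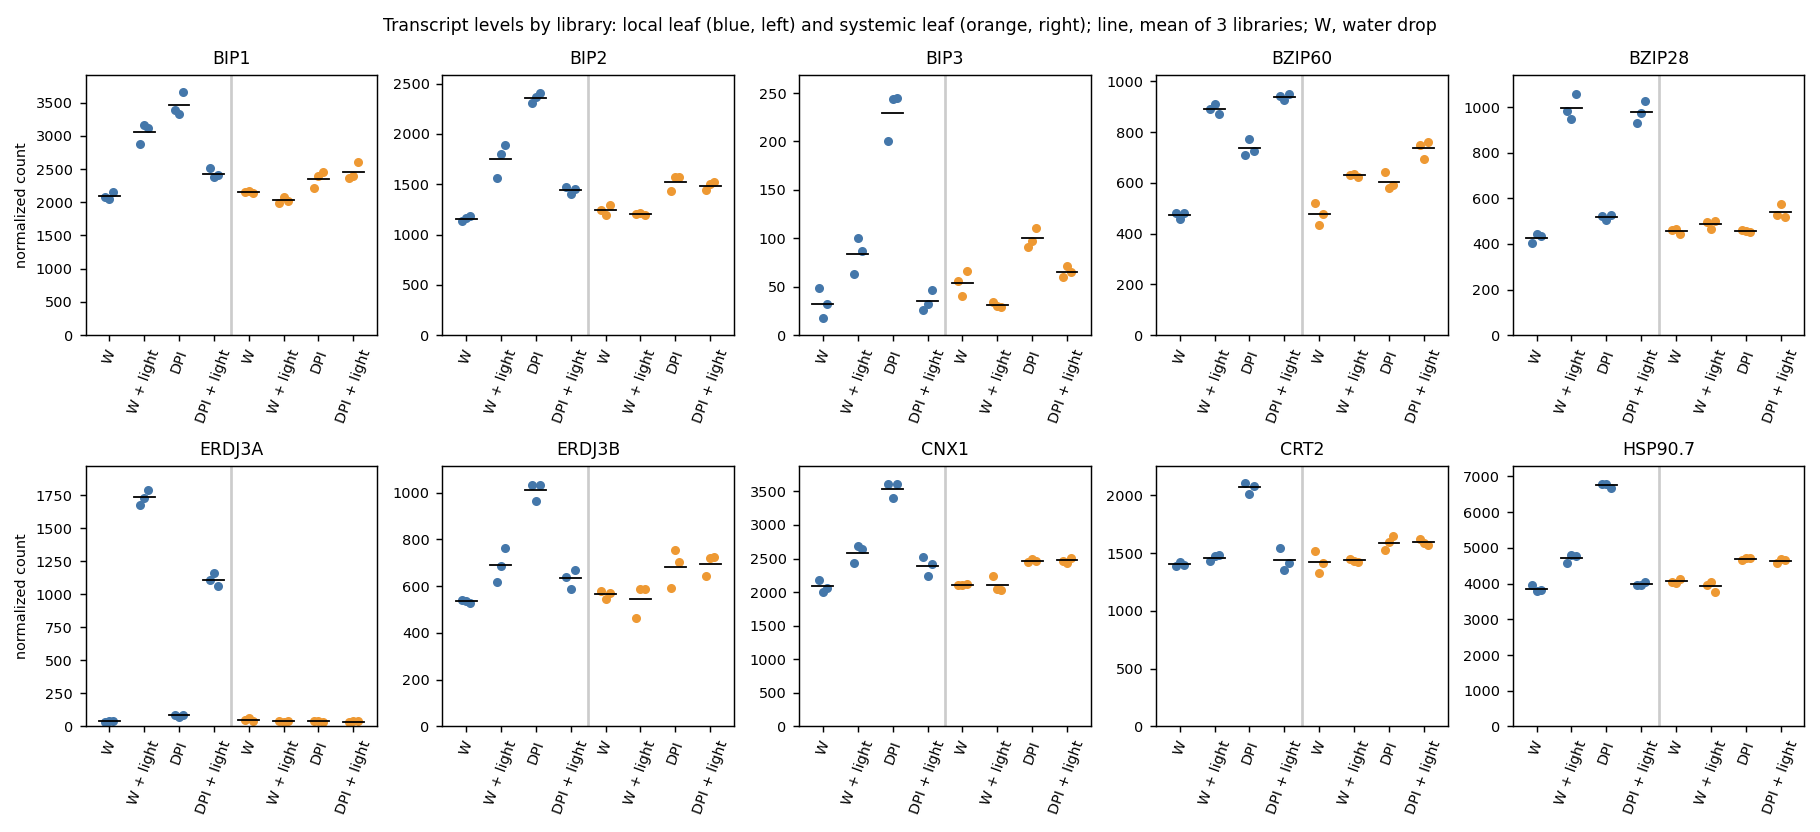
Normalized count of each of the 10 genes (y axis, from 0) in each of the 24 libraries, with local leaves on the left in blue and systemic leaves on the right in orange. Points are libraries and horizontal lines are means of 3 libraries; in local leaves BIP2 stood at 2309 to 2404 with DPI and no light, above the 1131 to 1185 of the water controls, whereas ERDJ3A stood at 1061 or more in the lit local libraries and at 88.4 or less in all others.

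In unlit leaves under water the chaperone transcripts spanned a wide range of levels. To compare genes, normalized counts were divided by the length of the RefSeq transcript. In local leaves HSP90.7 had the highest level at 1275 ± 27.0 normalized counts per kb (SD, n = 3), followed by CNX1 at 956 ± 41.8, BIP1 at 738 ± 18.4, CRT2 at 638 ± 7.51 and BIP2 at 443 ± 10.3. BZIP60 at 385 ± 10.6, ERDJ3B at 334 ± 3.88 and BZIP28 at 180.0 ± 8.66 normalized counts per kb followed. ERDJ3A, at 19.1 ± 1.40, and BIP3, at 15.4 ± 7.22 normalized counts per kb, were the lowest, and they did not differ beyond their spread. Every other neighbouring pair in this order was separated by more than the sum of its SDs. BIP1 and BIP2 share 96.66% of their coding bases, and 370 of the 75-base windows of their transcripts were identical, 13.4% of those of BIP1 and 14.5% of those of BIP2. The sources used here do not say how reads matching several genes were counted, so that the split between BIP1 and BIP2 is uncertain in these windows. BIP3 shared no such window with either.

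The systemic leaf of unlit water plants hardly differed from the local leaf. Of the 10 genes 1 was called higher, BIP3, against 1.58% of all tested genes, and 0 were called lower, against 1.19%. BIP3, the stress-inducible BiP gene, had normalized counts of 48.4, 17.8 and 31.8 in the local and 55.5, 40.8 and 66.1 in the systemic libraries. The groups overlapped, since the highest local library lay above the lowest systemic one. The difference was 0.79 ± 0.230 on the log2 scale (SE, adjusted p = 0.0498, limma), and it was not called under most alternatives or without local replicate 2, where it fell to 0.43 (adjusted p = 0.394). The other 9 differences lay between 0.0052 for BZIP60 and 0.27 for ERDJ3A. ERDJ3A, which encodes a J-protein of the ER lumen, had systemic counts of 46.7, 61.8 and 40.8 beside local counts of 37.3, 43.2 and 40.7, a difference with a 95% interval of -0.0046 to 0.55.

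Light stress for 8 min raised most of these transcripts in the exposed leaf under a water drop. Of the 10 genes 9 were called higher, against 17.9% of all tested genes, and 0 lower, against 14.4%. ERDJ3A rose most, 42.0-fold, BIP3, BZIP28 and BZIP60 rose between 1.88 and 2.66-fold, and the abundant chaperones BIP1, BIP2, ERDJ3B, CNX1 and HSP90.7 rose by a factor of 1.22 to 1.51. The median change of the 10 genes was 0.57 on the log2 scale, and that of all tested genes was -0.0003. In these pooled leaves, a change in the share of cells of a type and a change of RNA per cell cannot be told apart.

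Among the regulators, BZIP28 had normalized counts of 405, 445 and 433 in unlit and 985, 947 and 1056 in lit local leaves. Each lit library was more than 2 times each unlit one, and the difference was 1.22 ± 0.0565 on the log2 scale (adjusted p = 6e-21, limma). BZIP60 went from 483, 459 and 481 to 892, 909 and 872, again with no overlap, a difference of 0.91 ± 0.0568 (adjusted p = 9.02e-17). ERDJ3A had 37.3, 43.2 and 40.7 in unlit and 1680.1, 1733 and 1792 in lit leaves. The lit libraries were far above the unlit ones, a log2 difference of 5.39 ± 0.138 (adjusted p = 7.99e-30, limma). In Arabidopsis ERDJ3A is also named TMS1, after a mutant with heat-sensitive pollen.

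The BiP transcripts rose to different degrees. BIP3 had 48.4, 17.8 and 31.8 in unlit and 63.4, 99.9 and 87.0 in lit local leaves, so that all 3 lit libraries exceeded all unlit ones, and the difference of 1.41 ± 0.230 (adjusted p = 3.84e-06, limma) had the largest SE of the 10 genes. BIP1 went from 2085, 2047 and 2150.0 to 2884, 3155 and 3119.9 and BIP2 from 1131, 1161 and 1185 to 1565, 1796 and 1894. Their differences were 0.54 ± 0.0433 and 0.59 ± 0.0489, with adjusted p-values of 1.43e-13 and 4.12e-13 (limma). The J-protein ERDJ3B, a partner of BiP and SDF2, was at 540.1, 536 and 528 in unlit and 618, 688 and 762 in lit leaves, a difference of 0.36 ± 0.0778 (adjusted p = 0.000282).

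The lectin chaperones and the ER HSP90 moved least. CNX1, the membrane-bound calnexin, went from 2185, 2006 and 2064 to 2430.0, 2681 and 2638 (0.31 ± 0.0437, adjusted p = 2.71e-07, limma). HSP90.7 went from 3954, 3801 and 3827 to 4582, 4806 and 4779 (0.29 ± 0.0322, adjusted p = 1.03e-09). CRT2, a calreticulin, had 1392, 1423 and 1397 in unlit and 1428, 1475 and 1481 in lit local leaves. Its difference of 0.058 ± 0.0453 was not called (adjusted p = 0.363, limma), with a 95% interval of -0.034 to 0.15.

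**Figure D2:**
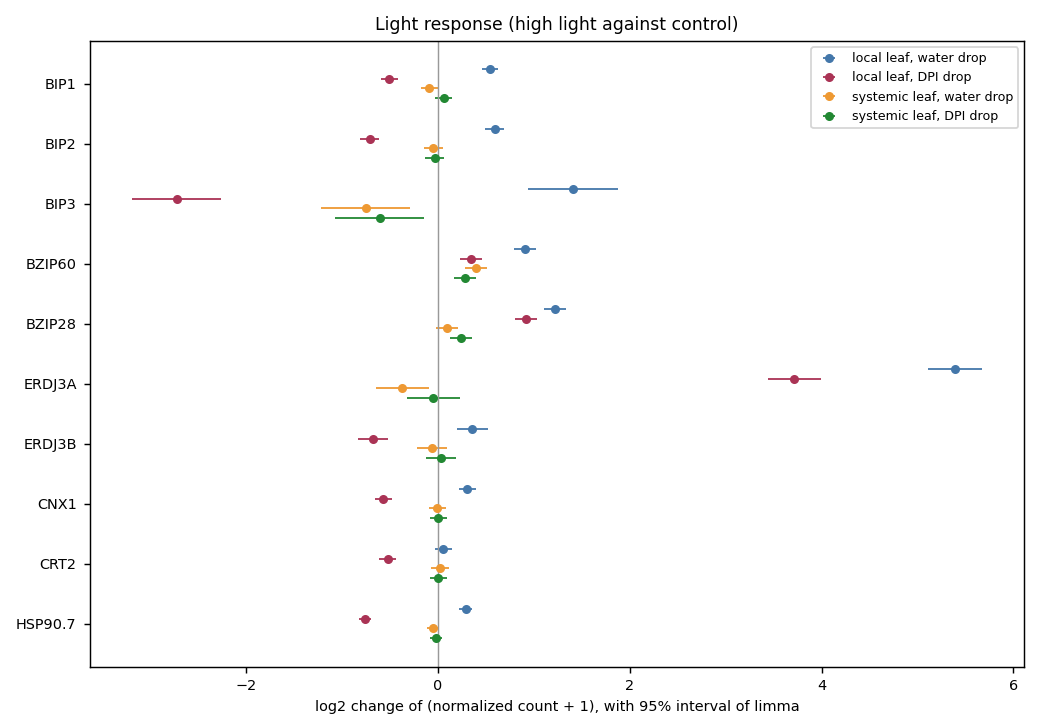
Light response (high light against control) of each of the 10 genes as the log2 difference of (normalized count + 1), x axis, in 4 settings: local leaf with water (blue) or DPI (red) and systemic leaf with water (orange) or DPI (green). Points are limma estimates from 3 against 3 libraries and bars are 95% intervals; the 7 chaperone genes other than ERDJ3A lie right of 0 in local leaves with water, CRT2 with an interval that includes 0, and left of 0 in local leaves with DPI.

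The systemic leaf of the same water plants responded in few of these transcripts. Of the 10 genes 1 was called higher, BZIP60, against 7.66% of all tested genes, and 1 lower, BIP3, against 3.10%. BZIP60 had 522, 434 and 476 in systemic leaves of unlit plants and 632, 635 and 621 in those of lit plants. Every library of lit plants was above every control library, and the difference was 0.40 ± 0.0568 (adjusted p = 8.27e-07, limma). BIP3 had 55.5, 40.8 and 66.1 and 34.1, 30.2 and 29.4, with all libraries of lit plants below all controls. Its difference of -0.75 ± 0.230 had an adjusted p of 0.0254 (limma), which rose to 0.16 without control replicate 3 and was also above 0.05 without control replicate 1, without replicate 2 or 3 of the lit plants, and with no filter on low values.

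ERDJ3A, the gene with the largest local response, had systemic counts of 46.7, 61.8 and 40.8 in unlit and 38.5, 31.2 and 44.6 in lit plants. These overlapped, and the difference of -0.37 ± 0.138 was not called (adjusted p = 0.0833, limma), although it was when replicate 3 of the control or of the lit plants was left out. BZIP28 had 461, 465 and 442 and 496, 465 and 499, a difference of 0.095 ± 0.0565 (adjusted p = 0.354). The remaining 6 differences, for BIP1, BIP2, ERDJ3B, CNX1, CRT2 and HSP90.7, lay between -0.087 for BIP1 and 0.020 for CRT2. The widest of their 95% intervals was that of ERDJ3B, -0.22 to 0.10.

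The difference between the light responses of the 2 leaves was tested as an interaction. Under water the response of the systemic leaf was lower than that of the local leaf for 9 of the 10 genes, against 10.3% of all tested genes, and higher for 0, against 8.52%. The difference of responses was -5.76 ± 0.195 for ERDJ3A, -2.16 ± 0.325 for BIP3, -1.12 ± 0.0800 for BZIP28 and -0.51 ± 0.0803 for BZIP60. Thus BZIP60, although raised in both leaves, was raised less in the systemic leaf (adjusted p = 5.27e-06, limma). For CRT2 the difference was -0.038 ± 0.0640 and was not called (adjusted p = 0.76).

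DPI without any light stress raised all 10 transcripts in the local leaf. This was 10 of 10 genes called higher, against 21.5% of all tested genes, and 0 lower, against 19.0%. BIP3 rose 7.35-fold, BIP2 2.04-fold and ERDJ3A 2.04-fold, and the other 7 between 1.21-fold for BZIP28 and 1.89-fold for ERDJ3B. The median change was 0.79 on the log2 scale, beside 0.0006 for all tested genes. These libraries were compared with the same unlit water libraries as the light response above, so that the 2 comparisons share controls.

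BIP3 had 48.4, 17.8 and 31.8 with water and 201, 243 and 245 with DPI, its highest level in any group. The lowest DPI library was above 4 times the highest water library, and the difference was 2.88 ± 0.230 (adjusted p = 1.3e-13, limma). BIP2 had 1131, 1161 and 1185 and 2309, 2363 and 2404 (1.02 ± 0.0489, adjusted p = 2.13e-20). BIP1 had 2085, 2047 and 2150.0 and 3395, 3328 and 3652 (0.72 ± 0.0433, adjusted p = 2.81e-17). Neither BIP1 nor BIP2 had overlapping groups, and for both every unlit DPI library lay above every lit water library.

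The remaining chaperone transcripts rose by less than BIP3. HSP90.7 had 3954, 3801 and 3827 with water and 6799, 6794 and 6691 with DPI, a difference of 0.81 ± 0.0322 with the smallest adjusted p of the 10 genes in this comparison (6.18e-23, limma). CNX1 had 3606, 3396 and 3615 with DPI (0.76 ± 0.0437) and ERDJ3B had 1033, 965 and 1032 (0.92 ± 0.0778). CRT2, which light had not detectably changed, had 2107, 2011 and 2081 with DPI beside 1392, 1423 and 1397 with water. The CRT2 groups did not overlap, and the difference was 0.56 ± 0.0453 (adjusted p = 2.15e-13, limma).

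The regulators and ERDJ3A moved in the same direction by amounts unlike those under light. BZIP60 had 711, 774 and 727 with DPI, a difference of 0.64 ± 0.0568 (adjusted p = 3.01e-12, limma). BZIP28 had 521, 505 and 527, all above the water controls, but by only 0.28 ± 0.0565 (adjusted p = 0.000109). ERDJ3A had 88.4, 75.1 and 87.8, also with no overlap, a difference of 1.03 ± 0.138 (adjusted p = 5.65e-08) beside the 5.39 of light under water.

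**Figure D3:**
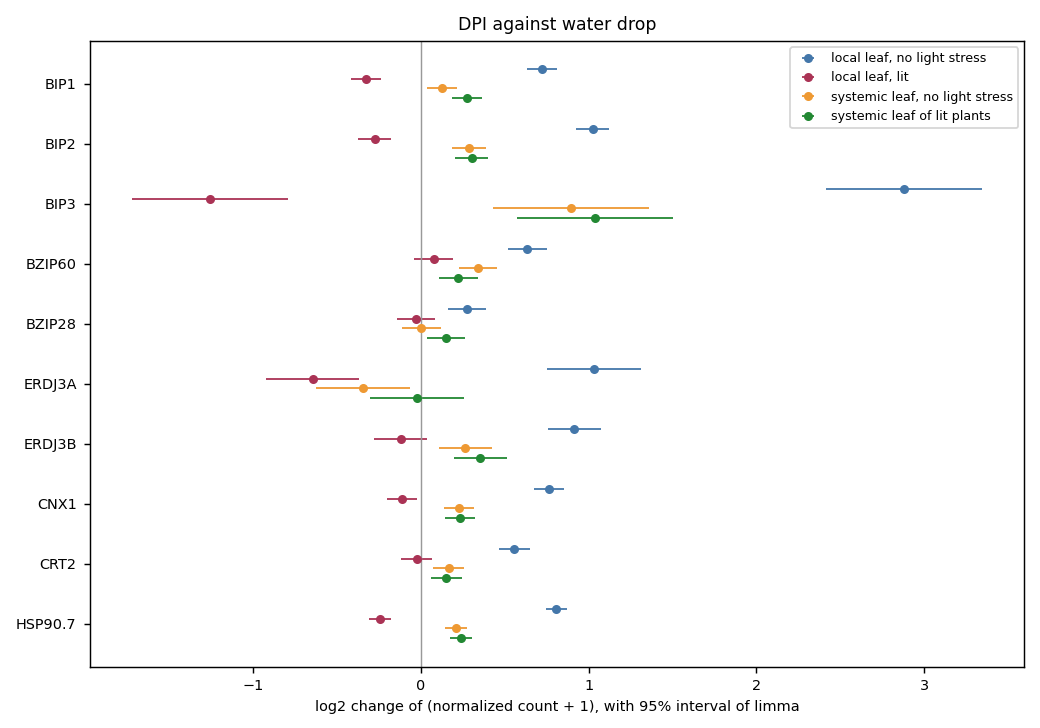
DPI against water drop for each of the 10 genes as the log2 difference of (normalized count + 1), x axis, in 4 settings: unlit local leaf (blue), lit local leaf (red), systemic leaf of unlit plants (orange) and systemic leaf of lit plants (green). Points are limma estimates from 3 against 3 libraries and bars are 95% intervals; all 10 genes lie right of 0 in the unlit local leaf, and BIP3 reaches 2.88 there and -1.25 in the lit local leaf.

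In the systemic leaf of unlit plants DPI raised 8 of the 10 transcripts, against 20.7% of all tested genes higher, and lowered 1, against 18.8% lower. BIP3 had 55.5, 40.8 and 66.1 with water and 91.4, 97.4 and 111 with DPI, with no overlap (0.89 ± 0.230, adjusted p = 0.00165, limma). BZIP60 had 522, 434 and 476 and 642, 578 and 592 (0.34 ± 0.0568, adjusted p = 4.14e-06). BIP2 (0.29), ERDJ3B (0.26), CNX1 (0.23), HSP90.7 (0.21), CRT2 (0.17) and BIP1 (0.13) were also called higher. BIP1 was no longer called without DPI replicate 2 or 3 or without water replicate 3 (adjusted p up to 0.121), ERDJ3B without DPI replicate 2 (0.077) and CRT2 without water replicate 2 (0.0543).

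ERDJ3A was the exception in direction. It had 46.7, 61.8 and 40.8 with water and 43.7, 38.0 and 34.0 with DPI in the systemic leaf, and the groups overlapped. Its difference of -0.34 ± 0.138 (adjusted p = 0.0436, limma) was not called by edgeR (adjusted p = 0.116) or DESeq2 (adjusted p = 0.141). Nor was it called with limma without water replicate 1 or 2 or without DPI replicate 2 or 3, where the adjusted p reached 0.359. The call was also lost in limma with only the groups compared (adjusted p = 0.196) or with no filter on low values (0.0699). BZIP28 had 461, 465 and 442 and 463, 457 and 451, a difference of 0.0038 ± 0.0565 that was not called, with a 95% interval of -0.11 to 0.12.

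The response to DPI was smaller in the systemic than in the local leaf. Tested as an interaction of leaf and drop in unlit plants, a comparison chosen after the values had been seen, it was lower in the systemic leaf for all 10 genes, against 5.03% of all tested genes lower and 2.63% higher. The difference of responses was -1.99 ± 0.325 for BIP3, -1.38 ± 0.195 for ERDJ3A, -0.74 ± 0.0692 for BIP2 and -0.60 ± 0.0455 for HSP90.7. It was -0.29 ± 0.0803 for BZIP60 (adjusted p = 0.016, limma) and -0.27 ± 0.0800 for BZIP28 (adjusted p = 0.0273), and these last 2 calls were the least stable. BZIP60 lost its call without water systemic replicate 1 or DPI replicate 2 of either leaf (adjusted p of 0.0588 to 0.08). It also lost it in limma with only the groups compared (0.0522). BZIP28 lost it with DESeq2 (0.0888), and without water local replicate 1, water systemic replicate 1 or 2, DPI local replicate 1 or 3, or DPI systemic replicate 2 or 3 (adjusted p of 0.0509 to 0.0968).

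Light stress under DPI turned most of the chaperone transcripts downwards in the local leaf, relative to the raised level that DPI alone had produced. Of the 10 genes 3 were called higher, against 17.9% of all tested genes, and 7 lower, against 15.9%. The 3 that rose were BZIP60, BZIP28 and ERDJ3A. The 7 that fell were BIP1, BIP2, BIP3, ERDJ3B, CNX1, CRT2 and HSP90.7. The unlit DPI libraries serve here as controls and in the comparison of DPI with water as the treated group, so that a high value in them enters the 2 comparisons with opposite sign, and no correlation between the 2 is given.

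BIP3 had 201, 243 and 245 in unlit and 25.6, 32.3 and 46.5 in lit local leaves with DPI. Its lit libraries were back in the range of the unlit water leaves, a 6.60-fold decrease (-2.72 ± 0.230, adjusted p = 7.47e-13, limma). HSP90.7 had 6799, 6794 and 6691 and 3975, 3959 and 4033 (-0.76 ± 0.0322, adjusted p = 3.55e-22). BIP2 had 2309, 2363 and 2404 and 1476, 1406 and 1449 (-0.71 ± 0.0489, adjusted p = 2.16e-15). None of these groups overlapped. ERDJ3B had 641, 590.0 and 669 in lit leaves (-0.67 ± 0.0778), CNX1 had 2517, 2233 and 2416 (-0.57 ± 0.0437), CRT2 had 1546, 1354 and 1415 (-0.52 ± 0.0453) and BIP1 had 2514, 2375 and 2409 (-0.51 ± 0.0433). For each of these 4 the lit DPI libraries lay below all 3 unlit DPI libraries.

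The other 3 genes kept a rise. ERDJ3A had 88.4, 75.1 and 87.8 in unlit and 1107, 1163 and 1061 in lit local leaves with DPI, a 13.1-fold increase (3.72 ± 0.138, adjusted p = 4.41e-24, limma). BZIP28 had 521, 505 and 527 and 929, 975 and 1026 (0.91 ± 0.0565, adjusted p = 7.13e-17). BZIP60 had 711, 774 and 727 and 941, 925 and 952 (0.35 ± 0.0568, adjusted p = 3.51e-06), reaching its highest level of all 8 groups. In none of the 3 did lit and unlit libraries overlap.

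The drop changed the local light response of all 10 genes in the same direction. The interaction of drop and light was lower under DPI for 10 of 10 genes, against 11.1% of all tested genes lower and 8.74% higher. It was -4.13 ± 0.325 for BIP3, a 17.6-fold difference between the 2 responses, -1.68 ± 0.195 for ERDJ3A, -1.30 ± 0.0692 for BIP2, -1.05 ± 0.0455 for HSP90.7, -1.05 ± 0.0612 for BIP1 and -1.03 ± 0.11 for ERDJ3B. It was -0.88 ± 0.0619 for CNX1, -0.58 ± 0.0640 for CRT2, -0.56 ± 0.0803 for BZIP60 and -0.30 ± 0.0800 for BZIP28. The largest adjusted p was that of BZIP28 (0.00468, limma). All 4 local groups enter this test, the raised unlit DPI libraries among them.

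**Figure D4:**
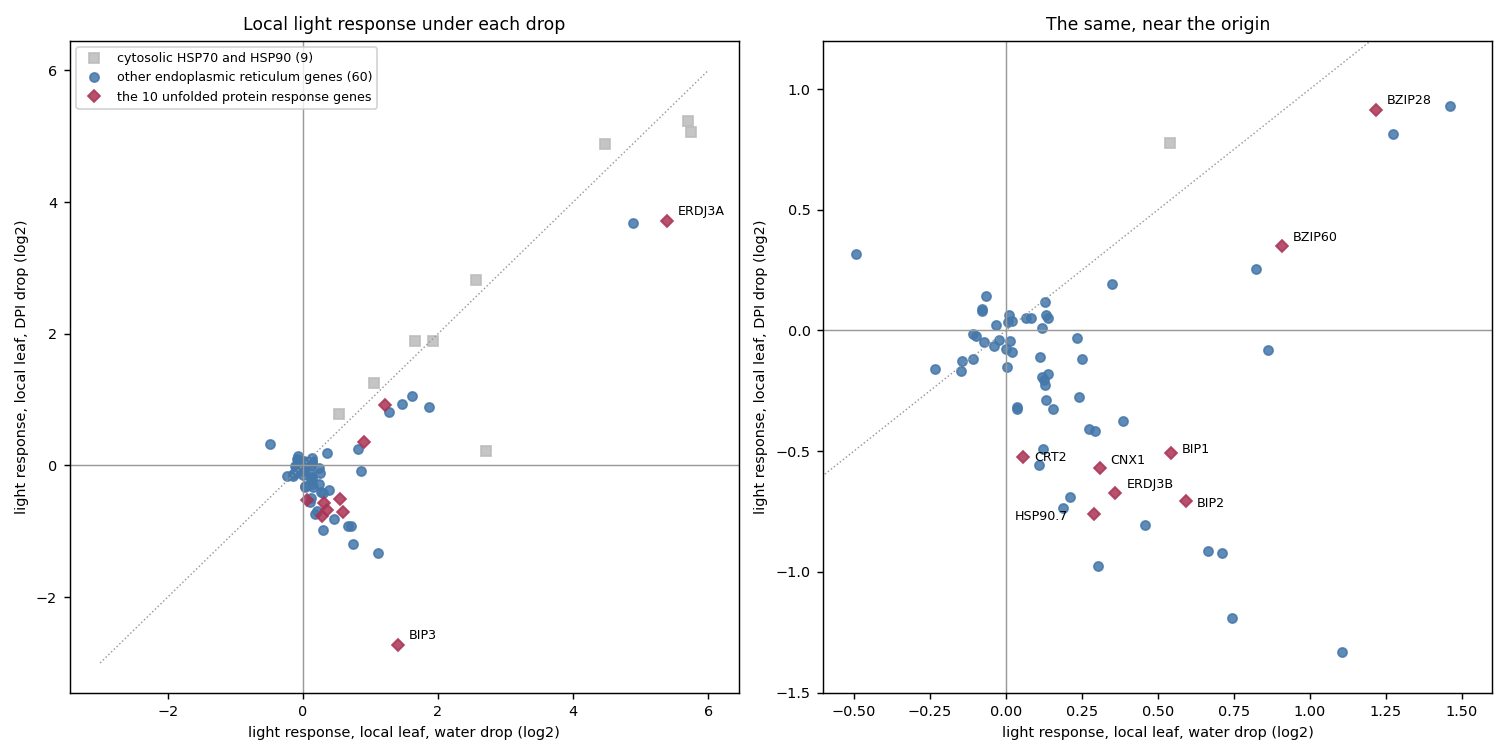
Log2 light response in the local leaf under water (x axis) and under DPI (y axis), for the 10 genes (red diamonds), 60 other ER genes (blue circles) and 9 cytosolic HSP70 and HSP90 genes (grey squares); the right panel enlarges the region near the origin, and the dotted line marks equal responses. The 2 axes rest on separate libraries; ERDJ3A lies at 5.39 and 3.72, and BIP3 lies at 1.41 and -2.72.

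A comparison of DPI with water within lit local leaves does not involve the unlit DPI libraries, and it was added after the values had been seen. Of the 10 genes 6 were lower under DPI, against 21.0% of all tested genes, and 0 higher, against 21.5%. BIP3 had 63.4, 99.9 and 87.0 with water and 25.6, 32.3 and 46.5 with DPI, with no overlap (-1.25 ± 0.230, adjusted p = 1.92e-05, limma). ERDJ3A had 1680.1, 1733 and 1792 and 1107, 1163 and 1061 (-0.64 ± 0.138, adjusted p = 0.00018). BIP1 (-0.33 ± 0.0433), BIP2 (-0.27 ± 0.0489) and HSP90.7 (-0.24 ± 0.0322) were also lower. CNX1 had a difference of -0.11 ± 0.0437 (adjusted p = 0.0342, limma) with overlapping libraries. It was not called without replicate 2 or 3 of the water group or replicate 2 of the DPI group (adjusted p of 0.117 to 0.277). With limma CNX1 also lost its call with no filter on low values (0.0583) or with only the groups compared (0.051).

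The transcription factor transcripts, CRT2 and ERDJ3B were not called in this comparison. In lit local leaves BZIP28 had 985, 947 and 1056 with water and 929, 975 and 1026 with DPI, a difference of -0.027 ± 0.0565 with a 95% interval of -0.14 to 0.087. BZIP60 had 892, 909 and 872 and 941, 925 and 952, a difference of 0.076 ± 0.0568 with a 95% interval of -0.039 to 0.19. CRT2 (-0.024, from -0.12 to 0.067) and ERDJ3B (-0.12, from -0.28 to 0.038) had differences whose 95% intervals also include 0.

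In systemic leaves with DPI, light on the local leaf raised BZIP60 and BZIP28 and called 0 of the 10 genes lower. These 2 genes compare with 7.15% of all tested genes higher and 4.56% lower. BZIP60 had 642, 578 and 592 in unlit and 750.2, 694 and 762 in lit plants (0.28 ± 0.0568, adjusted p = 0.000272, limma). BZIP28 had 463, 457 and 451 and 528, 577 and 519 (0.24 ± 0.0565, adjusted p = 0.00189). Neither overlapped. BIP3 had 91.4, 97.4 and 111 and 59.7, 71.1 and 64.8, with every library of lit plants below every control, but its difference of -0.61 ± 0.230 was not called (adjusted p = 0.0864), whereas edgeR (adjusted p = 0.0142) and DESeq2 (adjusted p = 0.0164) called it lower. The other 7 differences lay between -0.046 for ERDJ3A and 0.063 for BIP1.

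The drop did not detectably change the systemic light response of these genes. The interaction called 0 of 10 genes with limma, and 0 with edgeR and with DESeq2, against 2.32% of all tested genes higher and 4.08% lower. At an unadjusted p under 0.05 there was 1 gene, BIP1, with 0.15 ± 0.0612 (adjusted p = 0.171, limma). For BZIP60, whose systemic rise was called under both drops, the difference between the drops was -0.12 ± 0.0803 with a 95% interval of -0.28 to 0.044. BZIP28, whose systemic rise was called under DPI alone, had a difference of 0.15 ± 0.0800 (-0.014 to 0.31, adjusted p = 0.371), so that a difference between the drops was not shown. BIP3, with changes of -0.75 under water and -0.61 under DPI, had a difference of 0.15 ± 0.325 and a wide interval of -0.51 to 0.80.

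Under DPI the leaf by light interaction split the genes. The systemic response exceeded the local one for 7 of the 10 genes, the 7 chaperones that fell in the local leaf, against 6.04% of all tested genes, and was below it for 2, BZIP28 and ERDJ3A, against 7.13%. The difference was 2.12 ± 0.325 for BIP3, 0.74 ± 0.0455 for HSP90.7 and -3.76 ± 0.195 for ERDJ3A. For BZIP60 it was -0.065 ± 0.0803 and was not called (adjusted p = 0.689, limma), with a 95% interval of -0.23 to 0.10.

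In systemic leaves of lit plants, a comparison added after the values had been seen, 9 of the 10 genes were higher with DPI than with water, against 19.5% of all tested genes, and 0 lower, against 19.6%. BIP3 had 34.1, 30.2 and 29.4 with water and 59.7, 71.1 and 64.8 with DPI, without overlap (1.04 ± 0.230, adjusted p = 3e-04, limma). The other called differences ran from 0.15 for BZIP28 to 0.35 for ERDJ3B. BZIP28 lost its call with DESeq2 (adjusted p = 0.0821) and with limma without replicate 2 of the water group (0.144) or of the DPI group (0.202). The same happened in limma with only the groups compared (0.0629). ERDJ3A had 38.5, 31.2 and 44.6 and 33.8, 39.4 and 38.4, a difference of -0.023 ± 0.138 that was not called.

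Across the 24 libraries the 10 genes formed 2 sets by the Pearson correlation of their log2 levels, given as a description because libraries of a group share their treatment. BIP1, BIP2, BIP3, ERDJ3B, CNX1, CRT2 and HSP90.7 correlated with each other at r of 0.732 (BIP1 with CRT2) to 0.966 (BIP2 with CNX1). BZIP28 and ERDJ3A correlated at 0.967, BZIP60 with BZIP28 at 0.848 and BZIP60 with ERDJ3A at 0.757. Between the sets r ranged from -0.155 (ERDJ3A with CRT2) to 0.595 (BIP1 with BZIP60). The 2 J-protein genes fell into different sets, with r of 0.137 between ERDJ3A and ERDJ3B.

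Outside the 10 genes, the transcripts whose log2 levels over the 24 libraries were most like BIP2 were CRT3 (r = 0.955), PDIL2-2 (0.954) and PLDGAMMA3 (0.953), which encode a calreticulin, a protein disulfide isomerase and a phospholipase D. Those most like BIP3 were AT5G45510 (0.923) and the receptor-like protein genes RLP34 (0.921) and RLP23 (0.919). For BZIP60 they were AT5G41750 (0.982), the kinase gene RIPK (0.975) and the F-box gene FBS1 (0.971). For ERDJ3A they were TIN1 (0.994), AT2G29500 (0.993) and AT3G16040 (0.988). TIN1 encodes a plant protein known for its induction by the ER stress agent tunicamycin. What AT2G29500 and AT3G16040 encode is not described here, so that the description of TIN1 alone does not place the pattern. The r values of these neighbours of ERDJ3A lay close together, and which stress response the ERDJ3A pattern belongs to was not tested.

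A wider list of 62 other ER genes, of which 60 were tested, was counted in the same comparisons. In the local leaf under water light raised 25 of them, against 17.9% of all tested genes, and lowered 3, against 14.4%, with a median change of 0.13 (-0.0003 over all tested genes). TIN1 rose by 4.89 ± 0.113 on the log2 scale from a mean of 66.6 ± 7.61 (SD, n = 3) to 1991 ± 27.0 normalized counts. BI-1, an ER membrane suppressor of cell death, rose by 1.86 ± 0.0412, and NAC062, a membrane-tethered transcription factor, by 1.62 ± 0.0574. The 3 that fell were DAD1 (-0.23) and DGL1 (-0.15), subunits of the oligosaccharyltransferase, and the J-protein gene ERDJ2A (-0.15).

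DPI without light raised 34 of the 60 in the local leaf, against 21.5% of all tested genes, and lowered 3, against 19.0%, with a median of 0.25 (0.0006 over all tested genes). Among 11 genes of disulfide formation 7 rose and 0 fell, led by PDIL2-2 from 60.9 ± 13.2 to 221 ± 21.0 (1.86 ± 0.176) and PDIL1-2 from 445 ± 44.7 to 1157 ± 34.9 (1.38 ± 0.0631). Among 9 further chaperone and J-protein genes 8 rose and 0 fell. In the systemic leaf of unlit plants 19 of the 60 rose, against 20.7% of all tested genes, and 7 fell, against 18.8%, with a median of 0.079 (0.0045 over all tested genes). NAC062 rose there by 0.82 ± 0.0574, and TIN1 fell (-0.52 ± 0.113).

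With light under DPI 9 of the 60 rose in the local leaf, near the 17.9% of all tested genes that rose, and 21 fell, against 15.9%, with a median of -0.085 (0.0036 over all tested genes). The largest falls were those of PDIL2-2 (-1.33 ± 0.176), PDIL1-2 (-1.19 ± 0.0631) and PDIL1-3 (-0.98 ± 0.0724), and TIN1 (3.68 ± 0.113) and NAC062 (1.06 ± 0.0574) were among those that rose. The drop by light interaction was lower under DPI for 29 of the 60, against 11.1% of all tested genes, and higher for 1, against 8.74%, and was largest for PDIL2-2 (-2.44 ± 0.248), PDIL1-2 (-1.94 ± 0.0892) and CRT3 (-1.63 ± 0.0761). In systemic leaves light called 3 of the 60 higher and 1 lower under water, against 7.66% and 3.10% of all tested genes, and 3 higher and 3 lower under DPI, against 7.15% and 4.56%. These counts were near or under the shares of all tested genes, with NAC062 higher under both (0.79 and 0.55).

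Cytosolic HSP70 and HSP90 genes, members of the heat shock response, gave a contrast in local leaves with DPI alone and with light under DPI. All 9 tested genes of that list rose with light under water and all 9 under DPI, against 17.9% of all tested genes in each comparison, with medians of 2.56 and 1.89. HSP70B, a heat-inducible HSP70, rose by 5.75 ± 0.104 under water and 5.07 ± 0.104 under DPI. DPI without light raised 1 of the 9 in the local leaf, against 21.5% of all tested genes, and lowered 5, against 19.0%. The 1 that rose was HSC70-2, annotated Hsp70-2 by RefSeq, with 289 ± 35.6 normalized counts in unlit water leaves, 979.6 ± 50.8 in unlit DPI leaves, 1878 ± 81.5 in lit water leaves and 1136 ± 45.7 in lit DPI leaves (SD, n = 3). The local drop by light interaction was higher for 4 of the 9 and lower for 3, against 8.74% and 11.1% of all tested genes. In lit local leaves 7 of the 9 were lower with DPI than with water, against 21.0% of all tested genes, and 0 higher, against 21.5%. Of the 10 genes 6 were lower there.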

How the data were processed

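RNA-seq was analysed for 24 libraries, mapped to 8 groups by their titles. The authors made single-end libraries, checked reads with FastQC (version 0.11.7), aligned them with STAR (version 2.4.0.1) to TAIR10 and normalized counts with DESeq2 (version 1.20.0). The table deposited by the authors holds a normalized signal, read counts per gene scaled by a size factor for each library, not raw counts. Every library's values were whole multiples of what 1 read is worth (100% within 0.001 reads), which gave depth and recovered reads. How reads with several locations were counted, and whether counting used the strand, is not given in the sources used here.

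A gene was tested if 3 or more libraries had a normalized count of 10 or more, which held for 18314 genes. limma (version 3.58.1, R version 4.3.3) was fitted to log2(normalized count + 1) of all 24 libraries with a mean per group, 16 residual degrees of freedom and a trended prior. Tests were two-sided, with Benjamini-Hochberg adjustment over all tested genes within each of 11 comparisons, and 3 comparisons were added after the values had been seen. Alternatives were pseudocounts of 0.5 and 5, no filter, a mean of at least 50, TMM, quantile normalization, only the groups compared, a replicate block, edgeR (version 4.0.16) and DESeq2 (version 1.42.0) on recovered reads, and leaving out each library. Scripts were tested on simulated data. Promoter windows and transcript lengths came from RefSeq TAIR10.1, which matched 10 of 10 genes by locus tag.

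The 10 genes are named in every comparison. Of the wider list, those named in a comparison come from the 3 largest rises and 3 largest falls among called genes that moved the same way in all 3 same-numbered replicates. Genes of similar pattern were the 3 most correlated. The genes, lists and comparisons were chosen with earlier results of these data known.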

Additional observations from a re-analysis of the deposited data

Results flagged for a closer look

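The light response of these genes differed between drops or leaves in 28 interactions, and the DPI response differed between leaves in 10 interactions from a comparison added later. Each had an adjusted p under 0.05 of the difference itself (limma), and all values are differences of responses on the log2 scale. No cause of these differences was tested.

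In the local leaf the light response with DPI less the response with water was -4.13 for BIP3, -1.68 for ERDJ3A, -1.30 for BIP2, -1.05 for HSP90.7, -1.05 for BIP1, -1.03 for ERDJ3B, -0.88 for CNX1, -0.58 for CRT2, -0.56 for BZIP60 and -0.30 for BZIP28. For BIP1, BIP2, BIP3, ERDJ3B, CNX1 and HSP90.7 the response was called higher under water and lower under DPI.

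Between the leaves under water, the systemic minus the local light response was -5.76 for ERDJ3A, -2.16 for BIP3, -1.12 for BZIP28, -0.64 for BIP2, -0.63 for BIP1, -0.51 for BZIP60, -0.42 for ERDJ3B, -0.34 for HSP90.7 and -0.31 for CNX1. Under DPI it was -3.76 for ERDJ3A and -0.67 for BZIP28, but 2.12 for BIP3, 0.74 for HSP90.7, 0.71 for ERDJ3B, 0.67 for BIP2, 0.57 for CNX1, 0.57 for BIP1 and 0.53 for CRT2.

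For DPI against water without light, the systemic minus the local response was -1.99 for BIP3, -1.38 for ERDJ3A, -0.74 for BIP2, -0.65 for ERDJ3B, -0.60 for HSP90.7, -0.60 for BIP1, -0.54 for CNX1, -0.39 for CRT2, -0.29 for BZIP60 and -0.27 for BZIP28.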

How the results depend on the processing

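Over 14 comparisons, all alternatives and leaving out each library gave 2540 values for the 10 genes. Of these 2483 kept their call, 52 lost a call, 5 gained one and 0 reversed. Direction was compared only where a value was called with the main settings or with the alternative. The count for light in the systemic leaf under water, 2 genes, became 1 with no filter on low values, and 1 to 2 when 1 library was left out, as BIP3 lost its call. The count for systemic against local leaf, 1 gene, became 0 with edgeR, no filter, only the groups compared, pseudocounts of 0.5 and 5, quantile normalization, TMM and the replicate block, and 0 to 1 when 1 library was left out. Replicate numbers paired the libraries of a leaf type only weakly, since deviations of same-numbered libraries correlated at -0.028 to 0.0483. Their median r was 0.0107 in local and 0.0284 in systemic leaves, beside -0.0087 and -0.014 for different numbers. Of 24 libraries 19 correlated best with their own number. Deviations of local libraries were not compared with those of systemic ones, and the tests treated the leaf types as unpaired. A replicate block also ended the call of ERDJ3A for DPI in the unlit systemic leaf (adjusted p = 0.0511), and changed no other call of the 10 genes. Apart from BIP3 in the systemic leaf, no change that lost a call was larger than that of ERDJ3A in the unlit systemic leaf with DPI (-0.34). edgeR on recovered reads called 473 to 7660 genes per comparison, beside 508 to 7781 with limma. DESeq2 on recovered reads called 423 to 7067, fewer than limma in every comparison. BIP3, at 17.8 to 245 normalized counts, is limited most by depth. The median change of all genes lay at most 0.00964 from 0 in any comparison, and at most 0.0765 from 0 under quantile normalization.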
